A study of Mus musculus with 56 samples.

Results

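A set of 8 liver transcripts that encode secreted metabolic signals, or the receptor for one, were followed through the day in mice fed only by day or only by night: *Fgf21*, *Gdf15*, *Fst*, *Lect2* and *Tsku*, the leptin receptor gene *Lepr*, and the lipase inhibitors *Angptl4* and *Angptl8*. The members were fixed by name, and all 8 were found among the 25415 genes listed in the gene table. RNA was sequenced from the whole livers of 56 female C57BL/6J mice, 9 weeks of age and kept under 12 h of light per day. After acclimation on food ad libitum, each mouse was fed for 7 days either in the light phase alone, called daytime-restricted feeding (DRF), or in the dark phase alone, called nighttime-restricted feeding (NRF), which is the reference. Groups of 4 animals per regimen were sampled at 0, 4, 8, 12, 16, 20 and 24 h of zeitgeber time (ZT, counted from lights on), giving 14 groups. The labels name no transgene and no drug. Only 1 sex and 1 strain were studied, and whole liver was sequenced, so that fewer cells of a type and less RNA per cell cannot be told apart.

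Hepatokines are proteins that the liver secretes to act on other organs. FGF21 is a fasting and nutrient stress hormone, whose gene is a textbook target of the fatty acid sensor PPARA and of the stress factor ATF4. GDF15 signals to the hindbrain and lowers appetite, follistatin (Fst) binds and neutralises activins, LECT2 is a hepatocyte factor linked to inflammation and insulin sensitivity, and tsukushi (Tsku) is a small leucine-rich proteoglycan. ANGPTL4 and ANGPTL8 restrain lipoprotein lipase in alternation: ANGPTL4 is known as the factor of fasting, also under PPARA, and ANGPTL8 as the factor of feeding, induced by insulin. LEPR binds leptin, and the liver can release a soluble form of it.

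Levels are given as scaled counts, which are counts rebuilt from the deposited scores and set to a common library scale, on which a library summed to between 830216 and 1033005. In GRCm38 coordinates the genes lay at chr7:45613886-45615490 (*Fgf21*), chr8:70629393-70632456 (*Gdf15*), chr13:114452290-114458951 (*Fst*), chr13:56542464-56548502 (*Lect2*), chr7:98350668-98361328 (*Tsku*), chr4:101717404-101815352 (*Lepr*), chr17:33773750-33781830 (*Angptl4*) and chr9:21835510-21837347 (*Angptl8*). All 8 are protein coding. *Angptl8* lies wholly within *Dock6*, on the opposite strand, with no exon in common. Of the *Fst* exons, 115 bases are shared with *Gm47040*, an antisense transcript, and reads there cannot be assigned to 1 gene because the use of strand in counting is not given in the sources used here. No other member shared exon bases with another annotated gene.

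The promoters of 2 members are shown because *Fgf21* and *Angptl8*, which stood high in opposite phases of the feeding cycle, both carried the same 9-letter element just upstream of the start site. The sequences are the 250 bases before the RefSeq start on GRCm38.p6, written 5′ to 3′ along the gene's own strand. Capitals mark TGATGCAAT, the composite element bound by ATF4 with a C/EBP partner, or its reverse complement ATTGCATCA, and the E-box CACGTG, the element bound by CLOCK and BMAL1 among other factors.
Fgf21, chr7:45615491-45615740, minus strand: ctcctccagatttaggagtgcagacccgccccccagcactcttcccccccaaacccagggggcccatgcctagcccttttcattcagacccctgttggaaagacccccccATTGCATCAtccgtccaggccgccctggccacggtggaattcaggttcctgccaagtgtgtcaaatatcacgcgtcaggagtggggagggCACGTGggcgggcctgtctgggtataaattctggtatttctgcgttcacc
Angptl8, chr9:21835260-21835509, plus strand: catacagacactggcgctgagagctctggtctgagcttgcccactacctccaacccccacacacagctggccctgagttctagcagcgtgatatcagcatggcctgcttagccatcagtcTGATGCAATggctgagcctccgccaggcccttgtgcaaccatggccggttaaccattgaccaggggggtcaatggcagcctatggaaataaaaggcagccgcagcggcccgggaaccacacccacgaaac
The element stood at -140 to -132 from the start in *Fgf21*, in reverse, and at -130 to -122 in *Angptl8*. It was found, on either strand, in 0.167% of the 32851 upstream windows of the RefSeq table. The E-box stood at -50 to -45 in *Fgf21* and at -83 to -78 in 1 of the 2 *Gdf15* windows, and was found in 6.02% of all windows. The PPAR element, spelled as 2 copies of AGGTCA with 1 free base between, the D-box TTATGTAA and the FOXO element TTGTTTAC, searched on both strands, had no match in the windows of the 6 members with a table entry, which are *Fgf21*, *Gdf15*, *Lepr*, *Angptl8*, *Lect2* and *Tsku*. A match is a description of letters, and binding was not measured.

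Per kilobase of exon, the members covered a wide range of levels. *Lect2* was highest, with a mean of 65.2 scaled counts per kb over the 56 libraries, followed by *Tsku* with 30.3 and *Angptl8* with 25.3 scaled counts per kb. *Lepr* came next with 5.69 and *Angptl4* with 2.28 scaled counts per kb. The low end held *Gdf15* with 0.486, *Fgf21* with 0.104 and *Fst* with 0.0958 scaled counts per kb. The ranges of neighbours overlapped: single livers placed *Tsku* above *Lect2*, and the ranges of *Fst* and *Fgf21* overlapped.

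**Figure D1:**
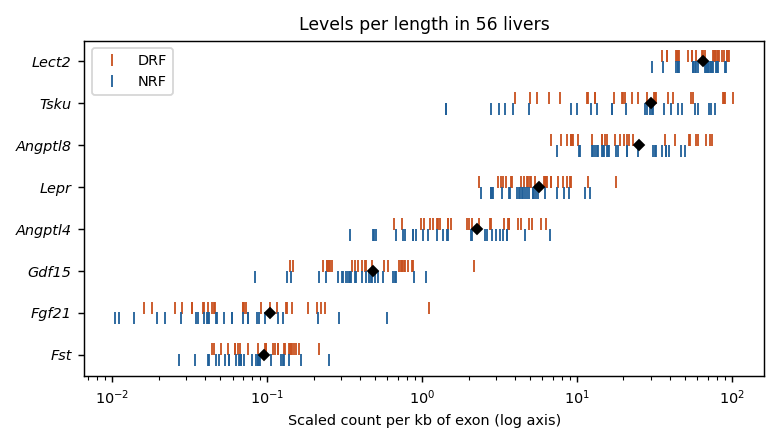
Level of each gene per kb of exon (horizontal log axis, scaled counts per kb) in 56 livers, with 1 tick per liver coloured by regimen and a diamond for the mean of all livers. *Lect2* sits highest and in a narrow band, *Tsku* covers the widest band among the abundant genes, and *Fgf21* and *Fst* have the lowest means. A liver with 0 counts of *Fgf21* is not drawn.

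Feeding time turned the daily profile of most members around. A 24-h rhythm passed the limma F test (adjusted p under 0.05) for 6 of the 8 genes under DRF, where 34.7% of all 25342 genes tested did, and for 5 of the 8 under NRF, where 43% did. The 5 genes called under both regimens were *Fst*, *Tsku*, *Lepr*, *Angptl4* and *Angptl8*, and *Fgf21* was called under DRF (adjusted p = 0.028) but missed the threshold under NRF (adjusted p = 0.118). The *Fgf21* call under NRF turned on the pseudocount of 1 added before the log. It passed with a pseudocount of 0.1 (adjusted p = 0.0163) or 0.01 (adjusted p = 0.00568) and with deposited values (adjusted p = 0.007). *Gdf15* and *Lect2* were called under neither, although *Gdf15* under NRF reached an adjusted p of 0.0495 with a pseudocount of 0.01. The rhythm itself differed between the regimens for the same 6 genes that were called under DRF, where 38.4% of all genes did. *Gdf15* joined them under other settings, with an adjusted p of 0.042 at a pseudocount of 0.1, 0.0355 at 0.01 and 0.0312 with deposited values. The mean level over the day was called for *Fst* alone among the 8, and for 6.69% of all genes.

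**Figure D2:**
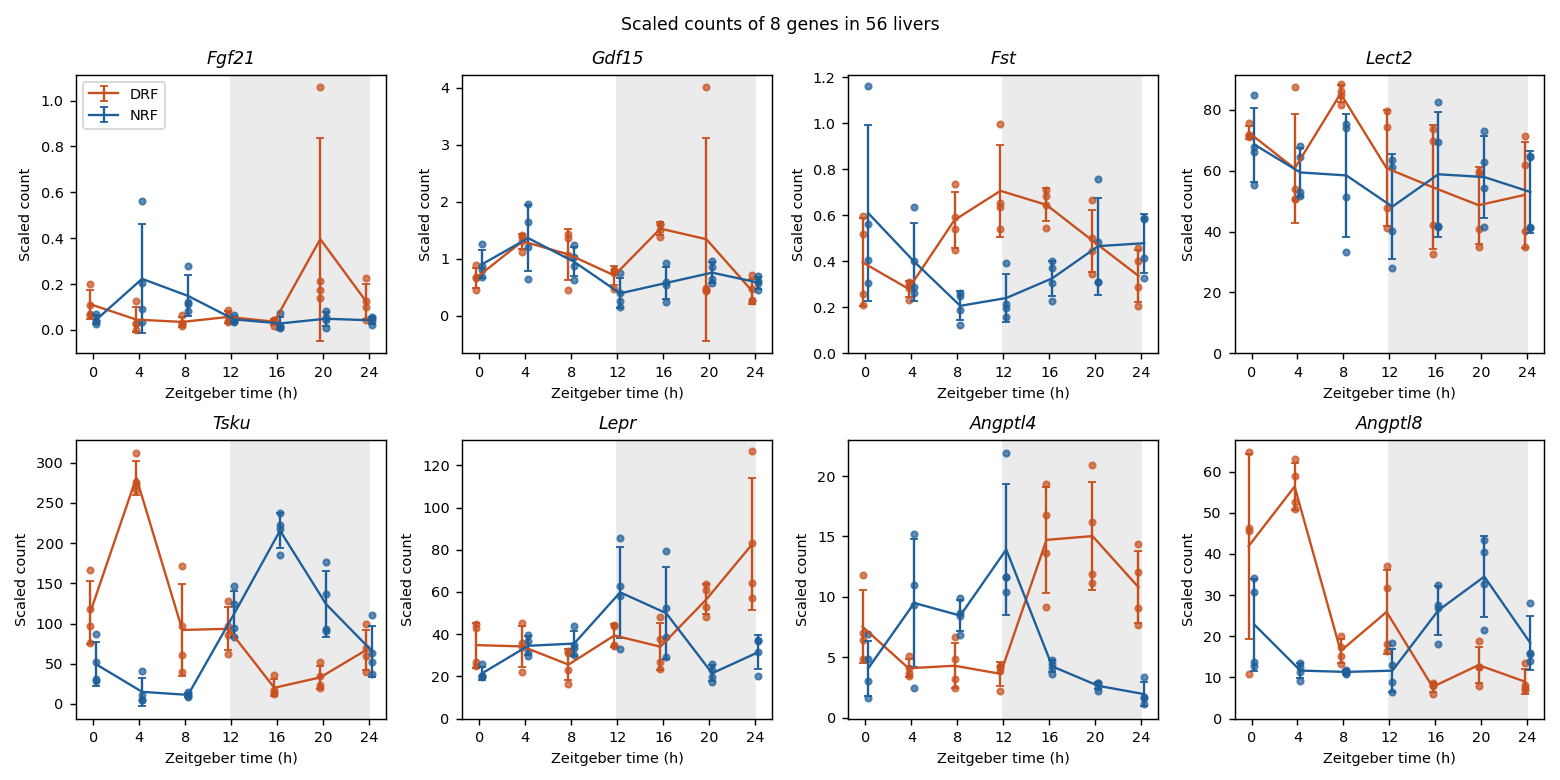
Scaled count (vertical, linear axis) of each gene by zeitgeber time (horizontal, h). Points are single livers, lines join group means, bars are 1 SD of 4 animals, colours are DRF and NRF, and grey marks the dark phase. *Tsku* and *Angptl8* stand highest in the feeding phase of each regimen, whereas *Angptl4* stands high on the opposite side of the day.

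*Tsku* had the widest swing. Under DRF it stood at 276, 266, 272 and 313 scaled counts in the 4 livers at ZT4 and at 35.9, 15.2, 16.9 and 12.2 at ZT16. Under NRF the picture was the mirror image, with 40.9, 4.39, 10.5 and 4.39 scaled counts at ZT4 and 217, 237, 186 and 222 at ZT16. At both times the groups of 4 did not overlap. The ZT4 mean was 18.7-fold higher under DRF (log2 difference 4.69 ± 0.44 SE, adjusted p = 7.31e-11), and the ZT16 mean was 10.7-fold higher under NRF (log2 difference -3.47 ± 0.44, adjusted p = 1.68e-07). *Tsku* was also higher under DRF at ZT8 (log2 difference 2.75 ± 0.44, adjusted p = 1.42e-05) and lower at ZT20 (-1.92 ± 0.44, adjusted p = 0.00162). At ZT0 it was 2.31-fold higher under DRF, with overlapping groups and an adjusted p of 0.0413 that rose above 0.05 when any 1 of 6 of the 8 livers was left out, to at most 0.146, and was 0.0921 with deposited values. Within DRF the highest group mean, 282 ± 21.2 (SD, n = 4) at ZT4, was 14 times the lowest, 20.1 ± 10.7 at ZT16. Within NRF the highest, 216 ± 21.7 at ZT16, was 19.2 times the lowest, 11.2 ± 2.84 at ZT8.

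The 2 lipase inhibitors stood high on opposite sides of the feeding cycle. *Angptl8* under DRF measured 63, 59, 50.8 and 52.7 scaled counts at ZT4, and under NRF 12.6, 9.13, 11.4 and 13.4. Every DRF liver at that time was above every NRF liver. The difference was 4.84-fold (log2 difference 2.19 ± 0.35 SE, adjusted p = 5.2e-06). At ZT16 the order was turned, with 5.93 to 8.74 scaled counts under DRF and 18.1 to 32.5 under NRF (log2 difference -1.63 ± 0.35, adjusted p = 0.000704), and it remained so at ZT20 (-1.35 ± 0.35, adjusted p = 0.00481). At ZT12 *Angptl8* was 2.23-fold higher under DRF with overlapping groups (adjusted p = 0.0236). Leaving out either of 2 DRF or either of 2 NRF livers raised that adjusted p to between 0.0738 and 0.112.

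*Angptl4* showed the reverse order. Under NRF the livers held 10.4, 22, 11.6 and 11.6 scaled counts at ZT12, against 4.16, 2.17, 4.3 and 3.87 under DRF. The groups did not overlap, and the mean was 3.84-fold higher under NRF (log2 difference -1.66 ± 0.33 SE, adjusted p = 0.000204). Through the night it was DRF that stood high. At ZT20 the DRF livers held 11.9, 20.9, 16.2 and 11.1 scaled counts and the NRF livers 2.89, 2.54, 2.24 and 2.86, a 5.71-fold difference (log2 difference 2.10 ± 0.33, adjusted p = 4.66e-06). The differences at ZT16 (log2 difference 1.54 ± 0.33, adjusted p = 0.000633) and ZT24 (2.02 ± 0.33, adjusted p = 9.77e-06) had the same direction, without overlap. Over the 14 group means, Pearson's r between *Angptl4* and *Angptl8* was -0.665, a description over groups that share the same libraries for both genes.

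*Lepr* stood highest late in the night under DRF. At ZT20 the DRF livers measured 60.7, 63.8, 48.3 and 53 scaled counts and the NRF livers 23.2, 25.9, 17.1 and 19.6. At ZT24 the values were 57.1, 127, 64.2 and 83.1 under DRF and 36.8, 31.4, 20.1 and 37.4 under NRF. In both cases the lowest DRF liver was above the highest NRF liver. *Lepr* was 2.63-fold higher under DRF at each of these times (ZT20, log2 difference 1.36 ± 0.27 SE, adjusted p = 0.000265; ZT24, 1.34 ± 0.27, adjusted p = 0.000346). Its highest NRF mean, 59.8 ± 21.7 (SD, n = 4), came at ZT12, where single livers spread from 32.7 to 85.6.

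*Fst* was the member whose mean level over the day differed between the regimens. Averaged over its rhythm it was higher under DRF (log2 difference 0.15 ± 0.04 SE, adjusted p = 0.0093). The mean of the fitted cosine was 0.516 scaled counts under DRF and 0.366 under NRF. Plain means of the libraries were 0.49 ± 0.193 under DRF and 0.389 ± 0.216 under NRF (SD, n = 28), and these SDs include the rhythm. Among the single times, the difference was called from ZT8 to ZT16. At ZT12 the DRF livers held 0.634, 0.655, 0.995 and 0.541 scaled counts and the NRF livers 0.158, 0.195, 0.392 and 0.215, without overlap and 2.94-fold higher under DRF (log2 difference 0.46 ± 0.11, adjusted p = 0.00186). At ZT8 it was 2.81-fold higher under DRF (adjusted p = 0.0101) and at ZT16 1.98-fold (adjusted p = 0.0415). The ZT16 call was lost without any 1 of 7 of the 8 livers, with adjusted p up to 0.0998, and also under median-of-ratios scaling (adjusted p = 0.0511) and with the length trend removed (adjusted p = 0.0809). These folds are ratios of mean scaled counts, while log2 differences of genes as low as *Fst*, *Gdf15* and *Fgf21* are understated by the pseudocount of 1.

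*Fgf21* was rare in these livers, with a median of 28 recovered counts per library and 0 in 1 library, DRF ZT4 replicate 1. Recovered counts exceed the stated sequencing depth and are not reads, so the reads behind them were fewer. At NRF ZT20 they ran from 4 to 58. *Fgf21* stood highest in the food-free phase of each regimen. At ZT20 the DRF livers held 0.139, 1.06, 0.213 and 0.175 scaled counts, against 0.01, 0.0842, 0.0566 and 0.0455 under NRF. Each DRF liver was above each NRF liver, and 1 DRF liver was far above the others. The mean was 8.07-fold higher under DRF (log2 difference 0.37 ± 0.10 SE, adjusted p = 0.00717). Without that liver, replicate 2, the log2 difference was 0.16 and the adjusted p 0.126, and the rhythm of *Fgf21* under DRF also lost its call (adjusted p = 0.0691). At ZT4 and ZT8 *Fgf21* stood higher under NRF by ratio, 4.91-fold and 4.23-fold, and neither time passed the test (adjusted p = 0.138 and 0.419). At ZT4 the NRF livers ranged from 0.0331 to 0.563, while at ZT8 the NRF livers, 0.112, 0.28, 0.0818 and 0.121, were all above the DRF livers, 0.0153, 0.0313, 0.0667 and 0.027.

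*Gdf15* was called at 1 time. At ZT16 the DRF livers lay between 1.39 and 1.61 scaled counts and the NRF livers between 0.25 and 0.922, without overlap. The mean was 2.65-fold higher under DRF (log2 difference 0.70 ± 0.22 SE, adjusted p = 0.0247). This call was lost without DRF replicate 1, without DRF replicate 3 or without NRF replicate 3 (adjusted p up to 0.105). At ZT20 the DRF livers measured 0.452, 4.01, 0.429 and 0.484, so that 1 liver, the same replicate 2 that was highest for *Fgf21*, stood 8.28 times above the next. The ZT20 difference did not pass the test (log2 difference 0.18 ± 0.22, adjusted p = 0.718), and without replicate 2 it had the opposite sign (-0.27).

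*Lect2* passed none of these tests between the regimens. Its values lay between 32.5 and 88.6 scaled counts under DRF and between 27.9 and 84.9 under NRF. The nearest to a difference was at ZT8, where the DRF livers, 88.6, 86.2, 81.6 and 85, were all above the NRF livers, 74, 51.4, 75.3 and 33.2. The log2 difference there was 0.61 ± 0.28 SE (adjusted p = 0.167) with a 95% interval from 0.06 to 1.16.

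**Figure D3:**
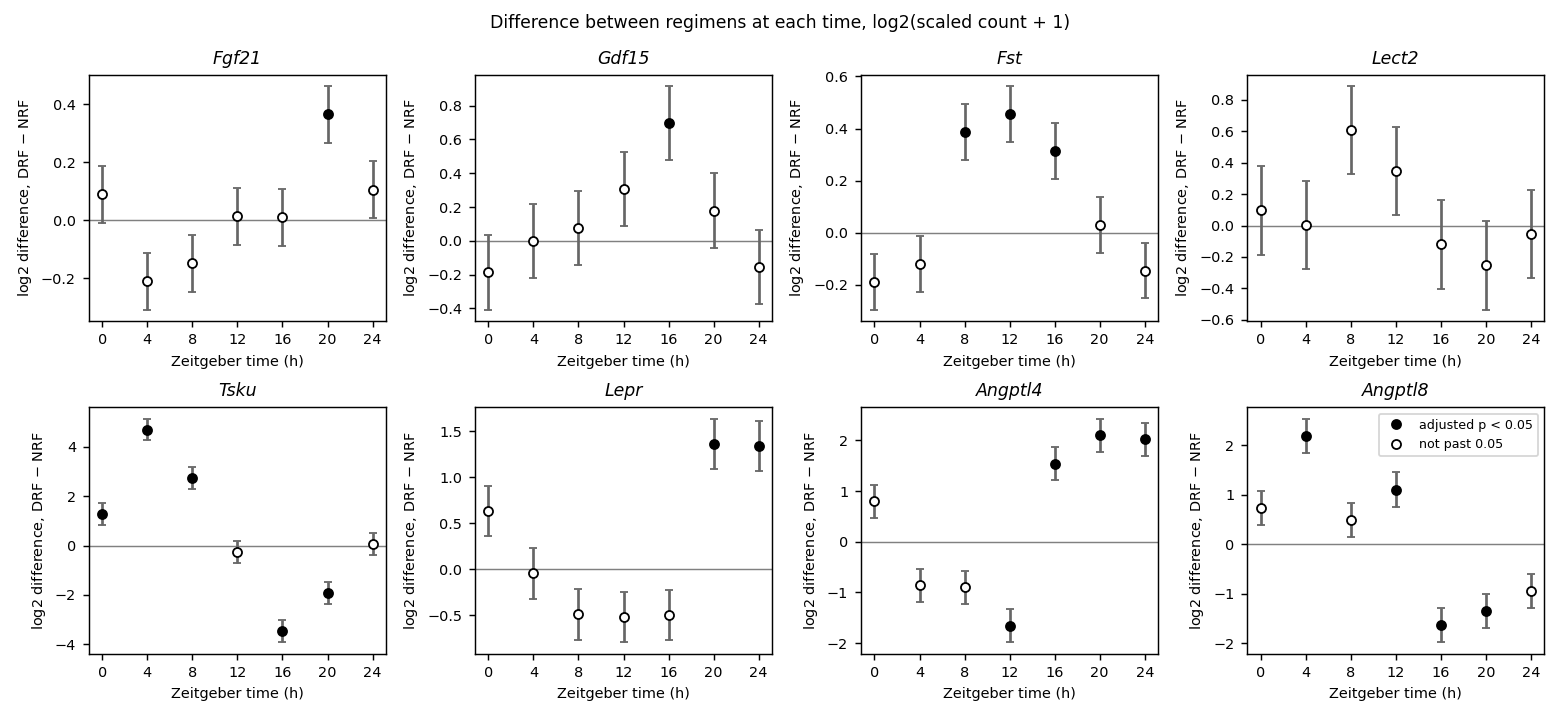
Log2 difference DRF minus NRF of log2(scaled count + 1) for each gene (vertical, own scale per panel) by zeitgeber time (horizontal, h), with bars of 1 SE of the limma fit over 56 libraries. Filled circles passed an adjusted p of 0.05. *Tsku* runs from 4.69 at ZT4 to -3.47 at ZT16, and no *Lect2* point is filled.

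Counted by time, the test between the regimens called 1 of the 8 members at the first time, ZT0 (16% of all genes tested). It called 2 members at ZT4 (20.2% of all genes), 2 members at ZT8 (12.9% of all genes) and 3 members at ZT12 (15.1% of all genes). In the night it called 5 members at ZT16 (14.9% of all genes), 5 members at ZT20 (13.7% of all genes) and 2 members at its end, ZT24 (14% of all genes). Without regard to the test, the 4 DRF and 4 NRF livers did not overlap for 6 of the 8 members at ZT8 (17.9% of all genes), 5 at ZT16 (15.8%) and 5 at ZT20 (17.5%). ZT16 and ZT20, in the middle of the night, thus held the most calls among these genes. Each time uses its own livers in both regimens.

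Peak times were estimated by a least-squares cosine of 24 h on scaled counts, with 28 livers per regimen. The cosine gives ZT0 and ZT24 the same value. Under DRF the means at ZT0 and ZT24 were 41.9 and 9 scaled counts for *Angptl8*, and 34.8 and 82.7 for *Lepr*. The fit cannot follow such differences, so the peaks and distances of *Angptl8* and *Lepr* are approximate. *Tsku* peaked at ZT 5.07 ± 0.496 h (SE) under DRF and at ZT 16.7 ± 0.496 h under NRF, a distance of 11.6 h with a 95% interval from 10.2 to 13 h. For *Angptl8* the peaks fell at ZT 4.54 ± 0.782 h and ZT 19.2 ± 1.09 h. Their distance around the clock was 9.29 h, with an interval from 6.65 to 11.9 h. *Angptl4* peaked at ZT 19 ± 0.532 h under DRF and at ZT 9.32 ± 0.734 h under NRF, 9.65 h apart (interval from 7.87 to 11.4 h). The 2 regimens differ in their feeding phase by 12 h, which is also the largest possible distance around the clock. That distance lay within the interval of *Tsku* and just outside those of *Angptl8*, *Angptl4* and *Fst*. The intervals are symmetric and can pass 12 h, so they do not test whether a shift fell short of 12 h. *Fst* peaked 9.18 h apart (6.56 to 11.8 h), from ZT 13.6 ± 0.872 h to ZT 22.8 ± 1.01 h. *Lepr* peaked 9.59 h apart (6.25 to 12.9 h) and *Fgf21* 9.79 h apart (5.69 to 13.9 h), with peaks of *Fgf21* at ZT 20.2 ± 1.24 h under DRF and ZT 5.95 ± 1.69 h under NRF.

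**Figure D4:**
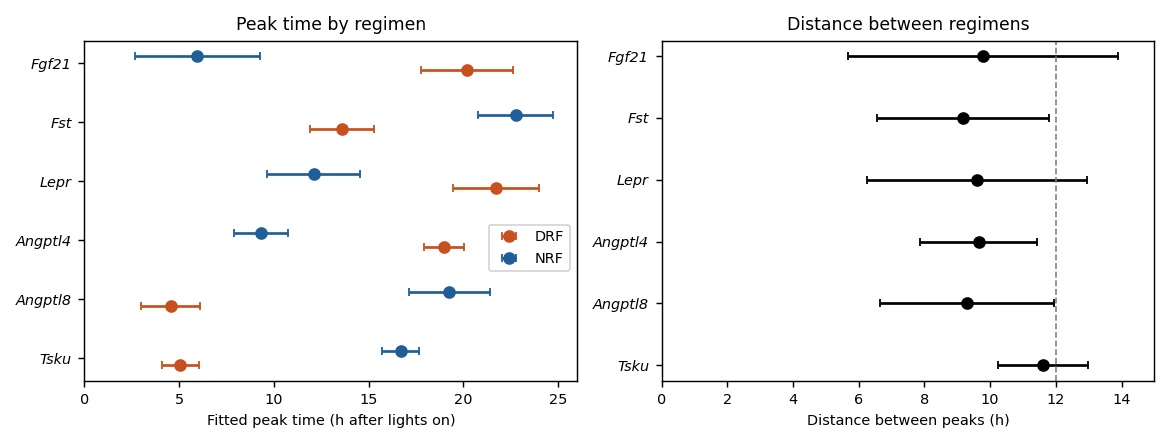
Fitted peak time (left, h after lights on) under DRF and NRF and the distance between the 2 peaks (right, h) for the 6 genes whose rhythm differed between the regimens. Bars are 95% intervals from 28 livers per regimen, and the dashed line marks 12 h. *Tsku* lies nearest to the line, at 11.6 h.

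The profiles were next compared at the same hour of the feeding cycle, each DRF time with the NRF time 12 h later. Over all 6 pairs in 1 test, 5 of the 8 members differed, as did 37.9% of all genes. *Angptl8* had the lowest adjusted p of the 8 (0.000194). At ZT0 under DRF it measured 10.9, 64.8, 46.4 and 45.6 scaled counts, and at ZT12 under NRF 13, 8.88, 18.3 and 6.4. At this point of the feeding cycle *Angptl8* was 3.6-fold higher under DRF (log2 difference 1.61 ± 0.35 SE, adjusted p = 0.00433), although the first DRF liver fell within the NRF range. The DRF ZT24 livers, at the same hour of the cycle, averaged 9 ± 3.12 scaled counts, against 11.6 ± 5.19 (SD) at NRF ZT12. The pair and the test over all pairs took this hour from DRF ZT0 alone, and the excess was absent at DRF ZT24. Of all genes, 2.66% were called in the DRF ZT0 pair, and *Angptl8* was the only member.

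At the next time, DRF ZT4 against NRF ZT16, *Angptl8* was still 2.14-fold higher under DRF without overlap (log2 difference 1.10 ± 0.35, adjusted p = 0.0272, 14.4% of all genes called), a call lost without any 1 of 4 of those 8 livers (adjusted p up to 0.0886) and with deposited values (adjusted p = 0.15). *Tsku* in the same pair stood at 282 ± 21.2 against 216 ± 21.7 scaled counts (SD, n = 4). Its groups did not overlap either, as for 15.9% of all genes, and the log2 difference was 0.39 with an interval from -0.49 to 1.26 (adjusted p = 0.631). Late in the food-free hours, DRF ZT20 against NRF ZT8, *Tsku* was 2.94-fold higher under DRF (adjusted p = 0.0235) and *Fst* 2.38-fold (adjusted p = 0.0466), where 16.3% of all genes were called. Both calls were lost without single livers, *Tsku* with an adjusted p up to 0.102 and *Fst* up to 0.17. In the remaining 3 pairs no member was called, against 11.5% of all genes for DRF ZT8 with NRF ZT20, 1.54% for DRF ZT12 with NRF ZT24 and 17% for DRF ZT16 with NRF ZT4. In the last of these *Tsku* passed with deposited values (adjusted p = 0.0224, against 0.209).

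*Angptl4* and *Lepr* passed the test over all pairs (adjusted p = 0.014 and 0.038) without passing it in any single pair. *Angptl4* at DRF ZT0 was 0.54 times its level at NRF ZT12 (log2 difference -0.81, interval -1.45 to -0.17, adjusted p = 0.206), and at DRF ZT20 1.78 times its level at NRF ZT8 (0.73, interval 0.09 to 1.37, adjusted p = 0.127). *Lepr* at DRF ZT0 was 0.582 times its level at NRF ZT12 (adjusted p = 0.155). At DRF ZT24 *Lepr* averaged 82.7 ± 31.2 scaled counts (SD), above the 59.8 ± 21.7 of NRF ZT12, so the lower level held for DRF ZT0 alone. The joint call of *Tsku* (adjusted p = 0.0466) was near the threshold and was lost in 36 of the 56 fits that left out 1 library, and that of *Lepr* in 12. With the replicate number as a block, the joint *Tsku* call was lost as well (adjusted p = 0.0515). *Fgf21*, not called over all pairs, passed with the length trend removed (adjusted p = 0.00304). That of *Fst* (adjusted p = 0.0255) was lost in 1, without DRF ZT20 replicate 2 (adjusted p = 0.0542).

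ZT0 and ZT24 are the same hour of the light cycle in different animals, and under DRF 2 members differed between them. *Angptl8* held 10.9, 64.8, 46.4 and 45.6 scaled counts at ZT0 and 8.1, 7.47, 6.81 and 13.6 at ZT24, where it was 4.66-fold lower (log2 difference -1.90 ± 0.35 SE, adjusted p = 0.00183). The ranges overlapped through the first ZT0 liver alone. *Lepr* stood higher at ZT24, with 57.1, 127, 64.2 and 83.1 scaled counts against 24.7, 26.6, 43 and 44.8 at ZT0, without overlap (2.38-fold, log2 difference 1.21 ± 0.27, adjusted p = 0.00952). Of all genes, 3.24% were called in this comparison, against 2 of the 8 members. Under NRF no member differed between ZT0 and ZT24, where 7.96% of all genes did. Whether the ZT0 animals of DRF had reached food is not given in the sources used here, and its part in the difference was not tested.

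Single livers within a group were also compared with the gene lists. In each of the 14 groups the liver with the most *Fgf21* was compared with a list of 15 PPARA targets, each gene scaled to its group mean. In 9 of the 14 groups the liver highest in *Fgf21* was also the liver highest in PPARA targets, and in none was it the lowest. It was the lowest of the 4 for insulin, SREBP1C and ChREBP targets (11 lipogenic and glycolytic genes) in 8 groups. For the 14 ATF4 and stress response genes it was highest in 3 groups. *Angptl4* and the FOXO1 targets, a list of 7 genes of the insulin-restrained programme, had the same liver highest in 9 groups. *Fst* and *Tsku* matched the FOXO1 targets in 6 groups each. With the PPARA targets *Angptl4* matched in 6 groups, no more than *Fst* and *Lepr* with 6 each. The counts of 9 were the highest over the 8 members and these lists. With 4 livers per group, some matches arise by chance. Such counts describe 14 groups of 4 livers and carry no test.

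DRF ZT20 replicate 2 was the highest of its group for 6 of the 8 members, for 14 of 15 PPARA targets and for 9 of 14 ATF4 and stress response genes, and the lowest for 7 of 11 insulin, SREBP1C and ChREBP targets. The 6 members included *Angptl8*, the factor of feeding, with 18.8 scaled counts. The scaled total of this library, 1008771, was also the highest of its group, where the others had 937225 to 998967. NRF ZT4 replicate 3, with 0.563 scaled counts of *Fgf21*, was highest for 15 of 15 PPARA targets and lowest for 9 of 11 insulin, SREBP1C and ChREBP targets. DRF ZT0 replicate 1, the liver with 10.9 scaled counts of *Angptl8*, was highest of its group for *Fgf21* and *Angptl4* and for 8 of 15 PPARA targets, and lowest for 7 of 11 insulin, SREBP1C and ChREBP targets. These livers were picked after their values were seen, and the food intake of single animals was not analysed here. The share of all genes at their highest in these livers was not counted.

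**Figure D5:**
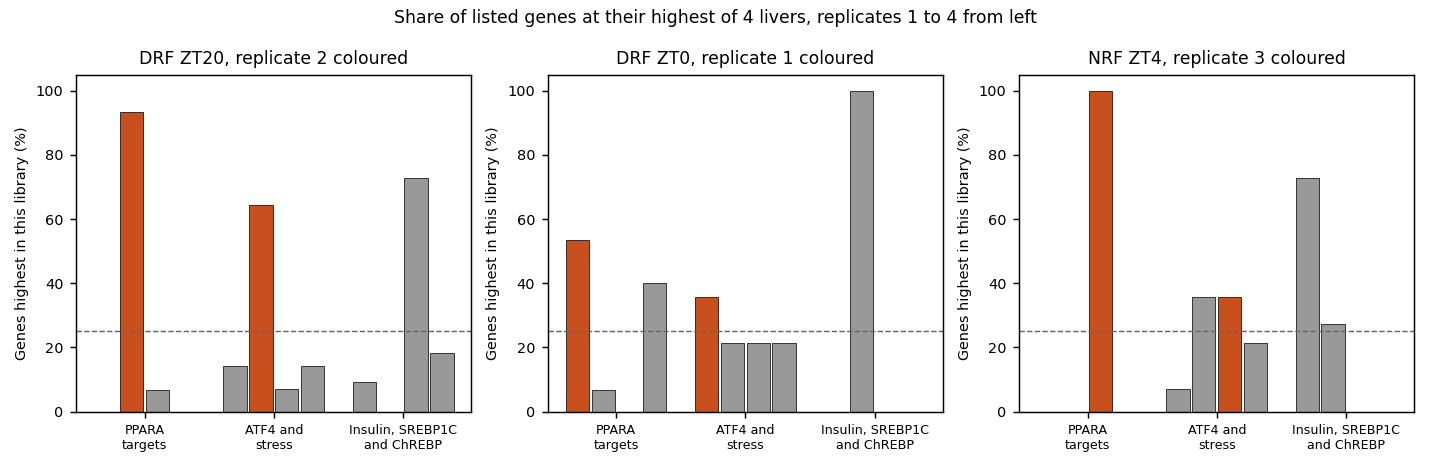
Share of listed genes (vertical, %) that were at their highest of 4 in each liver of 3 groups, with replicates 1 to 4 from left to right in each cluster and the liver with the most *Fgf21* coloured. The dashed line marks 25%, the share if highs were spread evenly over the 4 livers. The coloured liver held 14 of 15 PPARA target highs at DRF ZT20, 15 of 15 at NRF ZT4 and 8 of 15 at DRF ZT0.

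The pathways around the members followed the regimens in part. Of the 15 PPARA targets, 12 differed in rhythm between the regimens, against 38.4% of all genes, and 9 had a higher mean over the day under DRF, where 6.69% of all genes differed in either direction. *Cpt1a*, the gate of mitochondrial fatty acid oxidation, was highest at DRF ZT0 (243 ± 12.1 scaled counts, SD, n = 4) and NRF ZT12 (241 ± 11.4). *Ppara* itself was highest at the same times (344 ± 16.3 and 341 ± 63.2). *Pdk4*, next by the difference in rhythm, ran otherwise. It was highest at DRF ZT8 (23.3 ± 3.41) and NRF ZT0 (27.2 ± 8.63), and lowest at DRF ZT0 (6.32 ± 2.55) and NRF ZT8 (4.1 ± 1.6). At ZT20, when *Fgf21* and *Angptl4* were higher under DRF, 8 PPARA targets were higher and 1 lower (13.7% of all genes were called in either direction), with a median log2 difference of 0.62 beside 0.00 over all genes. Other times did not pair in this way. At ZT0, where neither gene was called, 10 targets were higher and 1 lower (median 0.64, 16% of all genes called). At ZT16, where *Angptl4* was called, 3 were higher and 1 lower (median 0.12, 14.9% of all genes called). The *Fgf21* call at ZT20 was lost without DRF ZT20 replicate 2 (limma adjusted p = 0.126), a liver that was also highest of its group for most PPARA targets.

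For the next lists too, counts of genes that differed in rhythm stand beside 38.4% of all genes. Of the insulin, SREBP1C and ChREBP targets, all 11 with a value differed in rhythm. At ZT8 all 11 were higher under DRF (median log2 difference 1.8, beside 0.00 for all genes), where 12.9% of all genes were called in either direction. At ZT20 8 were lower (median -1.81), where 13.7% of all genes were called. *Srebf1*, the lipogenic regulator, ran from 425 ± 32.6 at ZT4 to 80.1 ± 19.2 at ZT20 under DRF and from 358 ± 41.8 at ZT16 to 141 ± 40.5 at ZT4 under NRF, which places its highs at the hours of the *Tsku* highs. The list did not share these hours throughout. *Pnpla3* and *Acly*, next by the difference in rhythm, were highest at DRF ZT8 and NRF ZT20. Among the FOXO1 targets 6 of 7 differed in rhythm, and the gluconeogenic gene *Pck1* was highest at DRF ZT0 (1010 ± 71.3) and NRF ZT12 (1036 ± 215). Of the 14 ATF4 and stress response genes 10 differed, among them *Trib3*, a pseudokinase induced by ATF4, which reached 13.8 ± 2.88 scaled counts at NRF ZT8 and 5.95 ± 1.77 at DRF ZT16.

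Counts for receptors and partners of the members are read against the 38.4% of all genes that differed in rhythm. Of the 5 FGF21 receptor genes 4 differed in rhythm. *Fgfr4*, first by the difference in rhythm, was highest at DRF ZT16 and NRF ZT20, and *Fgfr1*, next, at DRF ZT0 and NRF ZT12. *Klb*, the coreceptor, was highest at DRF ZT20 (113 ± 4 scaled counts) and NRF ZT8 (97.3 ± 9.01). *Fgf21* had its highest mean at DRF ZT20 as well, but under NRF at ZT4 (0.223), with 0.148 at ZT8. The receptor genes thus did not share 1 pair of hours. Of the 12 activin and follistatin genes 8 differed in rhythm, among them *Inhbc*, an activin subunit of the hepatocyte, highest at DRF ZT8 (79.3 ± 12.2) and NRF ZT20 (104 ± 10.4). All 6 leptin receptor partners differed in rhythm. *Leprotl1*, a relative of the *Leprot* gene, was highest at DRF ZT12 (59.8 ± 2.31) and NRF ZT24 (62.6 ± 6.48), and lowest where *Lepr* was highest, at DRF ZT24 and NRF ZT12. In the lipase and ANGPTL system 4 of 12 differed in rhythm, near the share among all genes. Endothelial lipase, *Lipg*, was highest at DRF ZT0 (38.7 ± 7.66) and NRF ZT12 (38.8 ± 12.6). Both LECT2 receptor genes, *Met* and *Tie1*, differed in rhythm (adjusted p = 0.0027 and 0.002). Of 13 other hepatokine genes with a value 7 differed, the iron hormone *Hamp* among them (adjusted p = 0.0003), whose reads could be shared with its close copy *Hamp2*. The GDF15 receptor genes were not analysed here.

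The genes most like each member were taken from 11608 or 11609 protein-coding genes by Pearson's r of the 14 group means, given with no test. *Tsku* was most like *Riok2* (r = 0.942), *Plekha8* (0.94) and *Caln1* (0.927). *Angptl4* was most like *Spata2l* (0.939), *Plekhg3* (0.928) and *Cnppd1* (0.925), and *Angptl8* most like *Sybu* (0.899), the stress factor *Atf3* (0.893) and the cochaperone *Bag3* (0.871). The closest to *Lepr* were *Slco1b2*, a hepatic bile acid and drug transporter (0.907), *Deptor*, an inhibitor of mTOR (0.886), and *Tmtc2* (0.874). *Fgf21* was nearest to *Rab30* (0.891), *Ndor1* (0.843) and *Slc25a42* (0.831). *Fst* was nearest to *Ddit4*, a further inhibitor of mTOR signalling (0.901), *Gstm1* (0.899), of a multigene family whose reads may be split, and *Pgrmc2* (0.883). *Gdf15* was nearest to *Rpl27a* (0.887), *Smad6* (0.871) and *Rhod* (0.839), and *Lect2* to *Swi5* (0.846), *Dnajc12* (0.841) and *Maz* (0.83). Among the members themselves the highest r was 0.726, between *Tsku* and *Angptl8*.

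The libraries were checked as a whole. Replicate libraries of 1 group correlated with r between 0.965 and 0.99 over 84 pairs, and the 4 hepatocyte marker genes with a value summed to between 77253 and 137298 scaled counts in every library. Blood cell genes summed to between 540 and 1955 scaled counts under DRF and between 452 and 1303 under NRF, and their part in the results was not tested. No sequencing batch or date is given in the labels.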

How the data were processed

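The members and gene lists were chosen with earlier results of these data known. Per the labels, RNA was depleted of ribosomal RNA (the molecule field says polyA RNA), and strand-specific libraries were read as 150 bp pairs. The submitters' processing notes name CASAVA 1.8, featureCounts 1.5.0-p3 and the builds mm10 and GRCm38.p6, and the aligner is not given in the sources used here. The authors deposited gene values under the name TPM. These did not rise in proportion to reads, and the unit was taken as a score: each value times exon length followed (s/f)·ln(1 + f·k) with whole counts k. Of values rebuilt at up to 10 and up to 1000 counts, 99.2% and 96.2% lay within 0.05 of a whole number in genes left out of the fit, where 10% would by chance. Scaled counts are f·k, and 1 unit stood for 304 to 723 recovered counts. Recovered counts exceed the sequencing depth that the study states and are not reads, so precision comes from the spread between animals. The *Angptl4* length was searched on the values (3286 bases, annotated 3541), and for the other 7 members GENCODE vM21 lengths were used. In *Tsku*, 51 of 56 values were whole, and in the other members all 56 were. Of 25415 genes 73 could not be rebuilt. The filter, a mean deposited score of at least 0.1, removed 0 of the remaining 25342. The design had named linear TPM, and its limma tests (limma 3.58.1, R 4.3.3, Benjamini-Hochberg adjustment over all genes) were applied to log2(scaled count + 1) of all 56 libraries. The scripts were tested on simulated data. The rule named the 8 members, the 3 genes most like each, and up to 3 genes per list by the difference in rhythm. A 95% interval spans 1.96 SE on either side. The transcript and circRNA tables were not used here, and 0 columns lacked a sample.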

Additional observations from a re-analysis of the deposited data

Results flagged for a closer look

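Between regimens, the 24-h rhythm differed by the limma F test of the difference for *Tsku* (adjusted p = 1.19e-13), *Angptl4* (2.27e-10), *Fst* (2.68e-06), *Angptl8* (2.93e-05), *Lepr* (7.54e-05) and *Fgf21* (0.00647).

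In 9 of 112 groups of 4 livers, 1 liver lay far from the other 3 by Dixon's ratio, the gap to the nearest liver over the whole range, beyond its 95% critical value for 4 samples. Chance flags about 1 in 20 groups. The ratio was 0.985 for *Gdf15* and 0.92 for *Fgf21* in DRF ZT20 replicate 2, and the *Fgf21* calls that rest on this liver are given with and without it in the report. For *Fgf21* at NRF ZT16 it was 0.869, with 0.072 scaled counts in replicate 4 against 0.0185 in the next. *Lect2* at DRF ZT4 had a ratio of 0.914, with 87.4 scaled counts in replicate 3 against 53.9, and *Lepr* at NRF ZT0 one of 0.887, with 25.9 in replicate 4 against 20.3. *Angptl4* at NRF ZT12 had a ratio of 0.895, with 22 scaled counts in replicate 2 against 11.6, and *Angptl8* at NRF ZT24 one of 0.861, with 28.1 in replicate 2 against 15.9. *Tsku* at NRF ZT4 had a ratio of 0.831, with 40.9 scaled counts in replicate 1 against 10.5. *Gdf15* at DRF ZT12 was low in replicate 3, with 0.468 scaled counts against 0.756 in the next and a ratio of 0.841.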

How the results depend on the processing

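Of 49 member results past an adjusted p of 0.05, 4 lost the call under an alternative other than leaving out a library (*Fst* at ZT16, *Tsku* at ZT0, *Angptl8* for DRF ZT4 against NRF ZT16, and *Tsku* over all pairs), and 12 lost it without some single library. The F tests among them, of rhythms and over all pairs, have no sign. None of the other called results changed sign under any alternative. Members called, where the count moved by over 1.5 times, were 4 at ZT4 with the length trend removed (2 in the report), 3 at ZT16 and 0 for the mean over the day with genes of a mean scaled count of at least 1 (5 and 1), which leaves out *Fgf21*, *Gdf15* and *Fst*, and 1 for DRF ZT20 against NRF ZT8 with that filter (2). For DRF ZT4 against NRF ZT16 deposited values gave 0 (1). For DRF ZT8 against NRF ZT20 deposited values, that filter, median-of-ratios scaling, the length trend removed and the replicate block each gave 1 (0). For DRF ZT16 against NRF ZT4 deposited values gave 2 and pseudocounts of 0.1 and 0.01 gave 1 each (0), and for NRF ZT24 against ZT0 deposited values gave 1 (0).

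Without single libraries the members called ranged from 0 to 2 at ZT0, 2 to 4 at ZT4, 3 to 5 at ZT16, 1 to 2 for DRF ZT0 against NRF ZT12, 0 to 2 for DRF ZT4 against NRF ZT16, 0 to 1 for DRF ZT8 against NRF ZT20 and for DRF ZT16 against NRF ZT4, 0 to 2 for DRF ZT20 against NRF ZT8, and 3 to 5 over all pairs. Over all genes, deposited values called 318 for DRF ZT0 against NRF ZT12 (675 in the main analysis), 186 for DRF ZT12 against NRF ZT24 (391), 1626 for DRF ZT24 against ZT0 (821) and 5866 for NRF ZT24 against ZT0 (2018). With the length trend removed the counts were 10530 for DRF ZT4 against NRF ZT16 (3660), 9514 for DRF ZT8 against NRF ZT20 (2926), 8961 for DRF ZT20 against NRF ZT8 (4129), 6347 for DRF ZT24 against ZT0, 8566 for NRF ZT24 against ZT0 and 15908 over all pairs (9592), and the cause was not tested. Without single libraries the counts ran from 340 to 1332, 2221 to 4289, 1780 to 3320 and 174 to 483 for the DRF ZT0, ZT4, ZT8 and ZT12 pairs, from 235 to 998 for DRF ZT24 against ZT0 and from 710 to 2344 for NRF ZT24 against ZT0. Calls that were gained, with their values, are given in the report: the *Fgf21* rhythm under NRF, the *Gdf15* rhythm under NRF and its difference between the regimens, *Tsku* for DRF ZT16 against NRF ZT4 and *Fgf21* over all pairs. The *Gdf15* difference at ZT20, which was not called, changed sign with deposited values (-0.012) and ranged from -0.27 to 0.34 without single libraries. The *Tsku* peak under NRF moved to ZT 17.4 h with deposited values, and the *Fgf21* peak under DRF ranged from ZT 19.8 to 21.4 h without single libraries. The log2 difference of *Angptl8* between DRF ZT0 and NRF ZT12 ranged from 1.33 to 2.15.

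Replicate numbers share no animal, and libraries with the same number did not deviate together (mean r 0.0048 over 364 pairs, 33 of them above 0.1). A fit with the replicate block called 9718 genes for the difference in rhythm, against 9732 without it, and among the called member results 1 lost its call, *Tsku* over all pairs (adjusted p = 0.0515). Depth limits *Fgf21*, whose median was 28 recovered counts, which are not reads.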
